A study of Mus musculus with 20 samples.

Results

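The 8 BH3-only genes Bcl2l11, Bbc3, Pmaip1, Bid, Bad, Bik, Bmf and Hrk were followed through all 20 RNA-seq libraries of a study of CRISPR activation in mouse cells. They were chosen by gene symbol and make up 8 of the 25869 genes of the deposited table, in which genes carry Entrez identifiers and values are counts per 1000000 reads on genes (CPM). All 8 were found and had reads in at least 7 of the 20 libraries. The libraries comprised 10 of mouse embryonic fibroblasts (MEFs), 6 of lymphoma cell lines, 2 of primary lymphomas and 2 of precursor B cell leukaemia (preB-ALL), all from untreated cells or tissue.

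The MEFs were cultures from embryos of wild-type (WT) mice or of mice with 1 copy of the CRISPR activation cassette (dCas9a-SAM KI/+). This cassette sits in Rosa26 behind the ubiquitous CAG promoter and encodes a dead Cas9 fused to the activator VP64 together with the MS2-p65-HSF1 activator. There were 2 WT libraries, 2 dCas9a-SAM libraries without an sgRNA, 2 with a non-targeting sgRNA (sgNT) and 4 with an sgRNA for the promoter of Bcl2 (sgBcl-2). The labels number 2 MEF lines, so that sgNT and the cells without sgRNA have 1 library and sgBcl-2 has 2 libraries per line. The WT lines come from other embryos. The 6 lymphoma lines and both tumours carry the Eµ-Myc transgene, which drives Myc in the B cell lineage, dCas9a-SAM KI/+ and sgBcl-2. They arose from fetal liver stem and progenitor cells in irradiated recipient mice, so a tumour sample can also hold cells of the host. The lines 14_179_IgMp, 15_180_IgMp, 16_202_IgMp and 17_213_IgMp are labelled IgM-positive and the lines 18_214_IgMn and 19_216_IgMn IgM-negative, where the middle number is that of the mouse, and both tumours are IgM-positive. Where all 6 lines are given, their values follow this order. No lymphoma with sgNT was among the libraries, and the labels of each tumour give different mice in the title and the description. The preB-ALL libraries are labelled BCR-ABL1 (p190T/+), were titled P190CreERLSLErg and P190RagCreErg, and came from cells grown with IL7 and sequenced in another run. They carry neither sgBcl-2 nor dCas9a-SAM in their labels. Their titles differ from each other, so they may not be of 1 genotype, yet they were fitted as replicates of 1 group.

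Depth was between 12474885 and 26678417 reads on genes, with both preB-ALL libraries lowest. 2 sets of libraries stood apart before any comparison. WT MEF replicate 2 had 352 CPM of the collagen gene Col1a1 against 3682 CPM in WT MEF replicate 1, and its 8 myeloid markers summed to 227 CPM against 6.74 CPM. In both preB-ALL libraries 15 mitochondrial genes had 0 reads, although these genes had reads in every other library, and 10 of 12 fibroblast markers reached 1 CPM, with a sum of 3600 to 6699 CPM. B cell markers summed to between 1129 and 2093 CPM in the lines, 4711 and 5179 CPM in the tumours, 4390 and 8639 CPM in preB-ALL and 12.4 to 25.0 CPM in MEFs, so all labelled B cell samples carried them. The erythroid list stayed at or below 10.5 CPM and the endothelial list at or below 88.0 CPM in every library. In bulk RNA, fewer cells of a type and less RNA per cell cannot be told apart.

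BH3-only proteins start apoptosis at the mitochondrion. Their BH3 domain, a short helix, fits into the groove of the pro-survival proteins BCL-2, BCL-XL, BCL-W, MCL-1 and A1, and when these are occupied the effectors BAX and BAK permeabilise the outer membrane. BIM (Bcl2l11), PUMA (Bbc3) and tBID (from Bid) bind all pro-survival proteins and can also activate BAX and BAK directly. BAD binds BCL-2, BCL-XL and BCL-W, NOXA (Pmaip1) binds mainly MCL-1 and A1, and BMF, BIK and HRK have narrower or tissue-restricted roles. In lymphocytes BIM is the main brake on survival, and its loss speeds up Eµ-Myc lymphoma. Drugs such as venetoclax imitate a BH3 domain.

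The BH3 sequence is what these genes share, and it is shown here from the coding exons of GENCODE M21 transcripts on GRCm38. Each window holds 45 bases on the coding strand, and capitals mark the 6 core codons, which run from the conserved leucine to the conserved aspartate.
Bcl2l11: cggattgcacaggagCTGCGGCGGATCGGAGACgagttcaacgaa
Bbc3: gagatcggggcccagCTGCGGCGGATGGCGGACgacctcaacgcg
Bid: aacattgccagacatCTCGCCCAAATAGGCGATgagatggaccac
Bad: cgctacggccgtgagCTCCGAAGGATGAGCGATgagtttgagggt
Bik: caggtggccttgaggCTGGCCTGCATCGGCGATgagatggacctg
Bmf: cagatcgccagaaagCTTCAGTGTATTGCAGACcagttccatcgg
Hrk: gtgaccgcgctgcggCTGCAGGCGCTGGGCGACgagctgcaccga
These windows lie at chr2:128147135-128147179 (plus strand) for Bcl2l11, chr7:16313758-16313802 (plus) for Bbc3, chr6:120897286-120897330 (minus) for Bid, chr19:6950777-6950821 (plus) for Bad, chr15:83543069-83543113 (plus) for Bik, chr2:118545097-118545141 (minus) for Bmf and chr5:118169876-118169920 (plus) for Hrk. Each window lay within 1 exon, and its pattern occurred 1 time in its coding sequence. Across the 7 genes, 5 of the 18 core bases were the same in all. The cores of Bcl2l11 and Bbc3 were most alike, with 15 of 18 bases shared, and those of Bid and Bmf least alike, with 7. The sequence of Pmaip1 was not analysed here.

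Promoter windows were read for 6 members from RefSeq on GRCm38.p6, each from 250 bases before to 50 bases after an annotated start, 12 windows in all. Forkhead factors such as FOXO3 are known regulators of Bcl2l11 and Bbc3, and MYC binds the E-box, so the letters TGTTTAC (or GTAAACA on the other strand) and CACGTG were searched. The forkhead letters were in 2 of the 12 member windows and in 3.65% of 32851 promoter windows of the same length. The E-box was in 1 of the 12 and in 7.15% of all. Capitals mark the match in the windows printed here, which were picked because they hold a match, and a Bmf window without either match stands beside them. The other windows of Bcl2l11 and Bbc3 are not shown.
Bcl2l11, chr2:128125788-128126087, plus: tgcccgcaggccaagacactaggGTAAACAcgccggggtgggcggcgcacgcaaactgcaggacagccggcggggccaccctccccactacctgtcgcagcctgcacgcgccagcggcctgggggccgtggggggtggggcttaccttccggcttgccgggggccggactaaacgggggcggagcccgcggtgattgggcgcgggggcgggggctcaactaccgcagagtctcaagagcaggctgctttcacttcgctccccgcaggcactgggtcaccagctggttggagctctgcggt
Bbc3, chr7:16310181-16310480, plus: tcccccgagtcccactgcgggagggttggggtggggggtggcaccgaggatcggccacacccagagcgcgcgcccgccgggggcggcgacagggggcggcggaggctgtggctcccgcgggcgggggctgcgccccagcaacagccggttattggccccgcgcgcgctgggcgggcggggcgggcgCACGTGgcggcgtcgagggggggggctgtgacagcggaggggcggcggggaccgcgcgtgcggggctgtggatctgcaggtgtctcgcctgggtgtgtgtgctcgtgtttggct
Bmf, chr2:118549637-118549936, minus: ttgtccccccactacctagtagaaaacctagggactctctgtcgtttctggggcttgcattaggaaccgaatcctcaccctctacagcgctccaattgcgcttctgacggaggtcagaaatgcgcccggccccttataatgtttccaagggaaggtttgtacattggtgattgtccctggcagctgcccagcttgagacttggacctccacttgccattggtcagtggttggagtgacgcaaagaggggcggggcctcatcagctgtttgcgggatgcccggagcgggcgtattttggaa
The other forkhead match was in an overlapping Bbc3 window at chr7:16310011-16310310. A match of letters does not show that a factor binds there, and no binding was measured.

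Among the members that bind every pro-survival protein, Bcl2l11 divided the cell types most sharply. The gene spans chr2:128126038-128162547. Its level was 10.0 and 11.3 CPM in MEFs without sgRNA, 14.5 and 14.2 CPM with sgNT, and 19.7, 14.3, 20.1 and 18.1 CPM with sgBcl-2. WT MEFs had 7.58 and 25.7 CPM, and the higher of them is the library that stood apart. In the lymphoma lines it was 86.2, 86.5, 88.8, 92.4, 77.0 and 61.1 CPM. The tumours had 69.8 and 108 CPM and preB-ALL 54.2 and 96.8 CPM. Every B lineage library therefore exceeded every MEF library, and the 4 B lineage groups overlapped or lay next to one another in order. From high to low, the order of the group means was tumours, IgM-positive lines, preB-ALL, IgM-negative lines, sgBcl-2 MEFs, WT MEFs, sgNT MEFs and MEFs without sgRNA. IgM-negative lines and sgBcl-2 MEFs were apart as neighbours, as were sgNT MEFs and MEFs without sgRNA, while the other neighbouring groups overlapped.

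Bbc3, whose protein PUMA is the main killer downstream of p53, had group means between 18.6 and 34.1 CPM, the closest together of the 8 as a ratio. It spans chr7:16308398-16318334. WT MEFs had 18.8 and 33.5 CPM, MEFs without sgRNA 23.9 and 23.0, sgNT MEFs 19.4 and 18.1, and sgBcl-2 MEFs 16.5, 15.4, 22.3 and 20.2 CPM. In the lines it ranged from 19.5 CPM (18_214_IgMn) to 53.9 CPM (15_180_IgMp), with a median of 28.1 CPM, and preB-ALL had 23.4 and 33.9 CPM. The tumours had 6.92 and 36.3 CPM, so the lowest of all 20 libraries was 1 of the tumours. All neighbouring groups in the order of means overlapped.

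Bid, which caspase-8 cleaves to the active tBID, spans chr6:120893119-120917062 and stayed between 34.6 and 87.2 CPM in all 20 libraries. Both ends of that range were B lineage samples, with 49.2 and 34.6 CPM in preB-ALL and 84.8 and 87.2 CPM in the tumours. The lines had 50.4 to 72.8 CPM with a median of 58.3 CPM, and the MEFs 40.8 to 63.2 CPM. In the order of means the tumours lay apart from the IgM-positive lines below them, and all other neighbours overlapped. The 3′ end of Bid overlaps Bcl2l13 on the other strand, and as the library kit does not mark strand, reads there cannot be assigned to one of the genes with certainty.

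Pmaip1, which encodes NOXA, an inducible antagonist of MCL-1, had its highest level in MEFs without sgRNA, at 153 and 171 CPM. WT MEFs had 69.6 and 70.4 CPM, sgNT MEFs 47.3 and 44.9 CPM, and sgBcl-2 MEFs 49.6, 40.6, 39.4 and 57.8 CPM. The lymphoma lines had 21.9, 11.5, 13.6, 5.53, 36.8 and 41.1 CPM. Both IgM-negative lines, given last, were above every IgM-positive line. Tumours had 9.64 and 28.3 CPM and preB-ALL 43.1 and 37.6 CPM. In the order of means, sgBcl-2 and sgNT MEFs, preB-ALL and IgM-negative lines, and tumours and IgM-positive lines overlapped as neighbours, and the others were apart.

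Bad, which growth factor kinases hold inactive by phosphorylation, was higher in most MEFs than in B lineage samples. It spans chr19:6941861-6951905 and overlaps Gpr137 on the other strand at its 5′ end, where reads cannot be assigned with certainty. In 9 MEF libraries Bad was between 32.4 and 43.4 CPM, and WT MEF replicate 2 had 18.9 CPM. The lines had 12.9, 12.6, 19.8, 13.3, 11.1 and 10.8 CPM. The tumours had 17.5 and 18.9 CPM, and preB-ALL had 23.3 and 32.9 CPM. No lymphoma line reached the level of those 9 MEF libraries.

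Bmf, which is held on the cytoskeleton by a dynein light chain and responds to loss of attachment, covered the widest range of the members with many reads. It spans chr2:118528757-118549686. MEFs without sgRNA had 1.77 and 2.92 CPM, sgNT MEFs 2.29 and 1.53 CPM and sgBcl-2 MEFs 2.29, 1.47, 3.15 and 1.33 CPM. WT MEF replicate 1 had 0.530 CPM and WT MEF replicate 2 had 11.0 CPM. In the lymphoma lines Bmf was 20.0, 30.8, 26.8, 8.96, 10.8 and 16.4 CPM. The tumours had 36.8 and 94.2 CPM and preB-ALL 57.4 and 188 CPM. Every B lineage library was above the 9 MEF libraries other than WT MEF replicate 2, and the 2 libraries of each of tumour and preB-ALL differed widely from each other.

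Bik and Hrk were close to 0 nearly everywhere. Bik, an endoplasmic reticulum protein expressed in B cells, spans chr15:83526790-83544635 and includes the pseudogene Gm46495. It had 1.54 CPM (38 reads) in line 14_179_IgMp, 1.99 CPM (40 reads) in line 17_213_IgMp and 1.197 CPM (24 reads) in a tumour. The other lines had at most 4 reads, and no MEF library exceeded 8 reads. Hrk, known mainly from neurons, spans chr5:118169764-118189478. It had 28 reads (1.06 CPM) in WT MEF replicate 2 and 0 to 3 reads in each of the other 19 libraries, so it was not detectable in most of them at this depth. There were 0 reads in 13 of the 20 libraries, which allows up to 3 reads, or 0.112 to 0.240 CPM depending on the depth of the library, from counting error only.

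**Figure D1:**
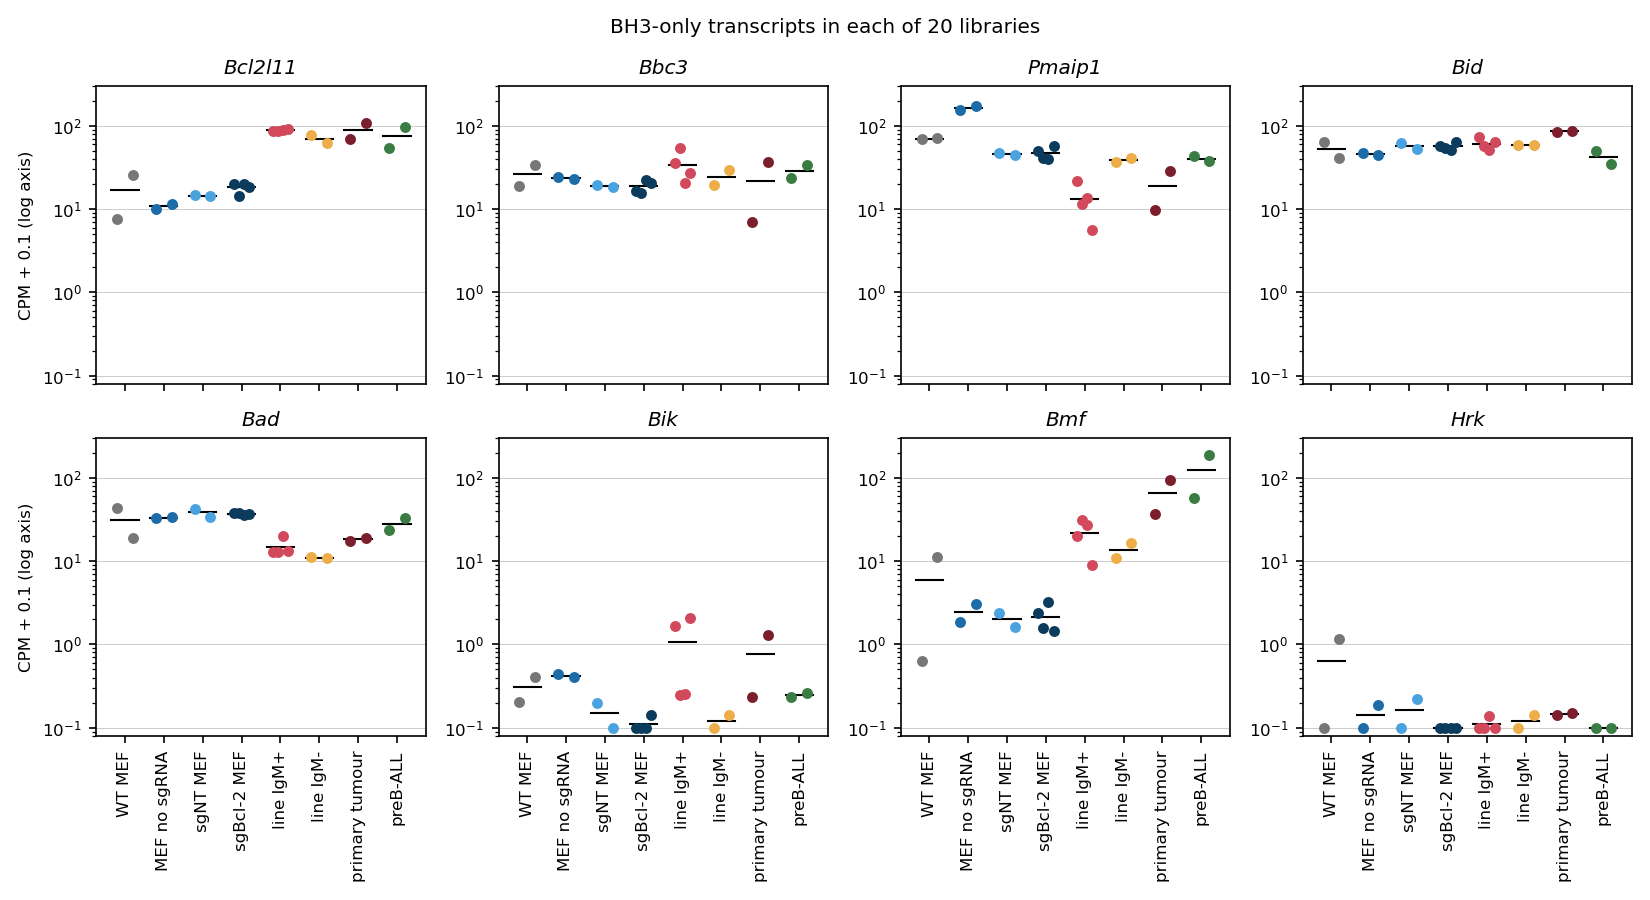
Each panel plots 1 BH3-only gene, with CPM plus 0.1 on a log axis against the 8 sample groups, 1 point per library and a bar at the group mean. Bcl2l11 and Bmf sit higher in the lymphoma, tumour and leukaemia libraries, Bad lies lower in the lymphoma lines, Pmaip1 peaks at 153 and 171 CPM in MEFs without sgRNA, and Bik and Hrk lie near the floor.

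Levels of different genes were set side by side only after dividing by exonic length, as CPM per kb of the merged protein-coding exons in GENCODE M21. On this scale the 8 transcripts together made 62.4 to 112 CPM per kb in a library. The sum was 67.8 CPM per kb on average in sgBcl-2 MEFs (62.7 to 75.1, n = 4) and 70.6 in IgM-positive lines (62.4 to 78.3, n = 4), and these ranges overlapped. The make-up of the sum differed. Pmaip1 made up 56.0% of it in MEFs without sgRNA, 24.9% in sgNT MEFs and 25.1% in sgBcl-2 MEFs. In the 6 lymphoma lines Bid gave the largest mean share at 35.3%, followed by Bbc3 at 21.6% and Bcl2l11 at 17.3%. Bcl2l11 made up 3.87% of the sum in sgBcl-2 MEFs. Bmf gave 25.2% in preB-ALL, 14.8% in tumours, 5.59% in the lines and 0.637% in sgBcl-2 MEFs. Bad went from 22.9% in sgBcl-2 MEFs to 8.21% in the lines. These shares rest on total exonic length, and other transcript isoforms would alter them.

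**Figure D2:**
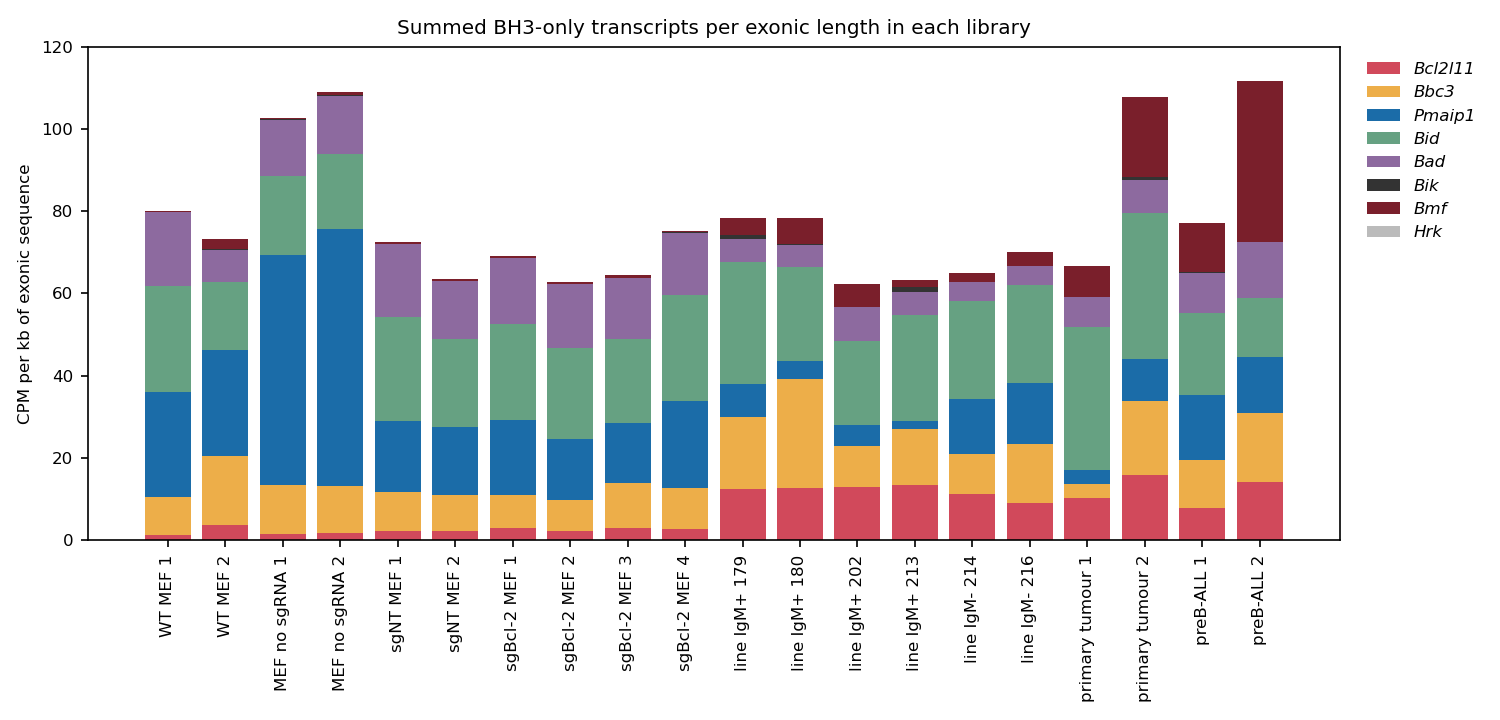
Stacked bars give the CPM per kb of exonic sequence of the 8 genes in each of the 20 libraries, with 1 colour per gene. The totals run from 62.4 to 112 CPM per kb, with Pmaip1 as the largest block in MEFs without sgRNA, Bbc3 in line 15_180_IgMp and Bmf in preB-ALL replicate 2.

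The first comparison asked whether BH3-only transcripts move when Bcl2 is switched on in fibroblasts. Bcl2 itself checks the labels. It had 67.9, 48.6, 46.8 and 71.8 CPM in the 4 sgBcl-2 MEFs against 13.4 and 13.7 CPM in the 2 sgNT MEFs, without overlap. This was a log2 fold change of 2.17 ± 0.19 (SE), a 4.51-fold rise, with an adjusted p of 0.00118 from limma on log2(CPM scaled by TMM + 0.1) and Benjamini-Hochberg adjustment over 14676 genes. None of the 6 members that passed the filter on low values was called at 0.05, beside 10.8% of all genes called. edgeR, DESeq2 and limma-voom also called 0 of them, and 1 member had an unadjusted p under 0.05. That member was Bcl2l11, with a log2 fold change of 0.41 ± 0.14 (95% interval 0.08 to 0.73, unadjusted p 0.0192, adjusted p 0.0989). Of the 4 sgBcl-2 libraries, 3 were above both sgNT libraries for Bcl2l11 in unscaled CPM, and sgBcl-2 MEF replicate 2 lay between them. Scaled by TMM, as in the fit, replicate 2 had 16.1 CPM and was also above the sgNT libraries, at 14.75 and 15.0 CPM.

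The call for Bcl2l11 depended on how the MEF lines were treated. When the 2 sgBcl-2 libraries of each MEF line were summed and the line was used as a block, Bcl2l11 had a log2 fold change of 0.41 and an adjusted p of 0.0345. With the block and all 6 libraries kept apart, the adjusted p was 0.0861. Without sgBcl-2 MEF replicate 2 it was 0.52 on the log2 scale with an adjusted p of 0.0217. Within MEF line 1 the sgBcl-2 libraries differed from the sgNT library by 0.130 and 0.573 on the log2 scale, and within MEF line 2 by 0.458 and 0.552, so Bcl2l11 was higher in 4 of 4 libraries. The other tested members had log2 fold changes between 0.05 (Bad) and 0.13 (Bmf). Their 95% intervals were -0.29 to 0.41 for Bbc3, -0.27 to 0.46 for Pmaip1, -0.18 to 0.32 for Bid, -0.16 to 0.25 for Bad and -0.66 to 0.92 for Bmf. Without a scaling factor Bbc3, Bid and Bad turned to -0.03, -0.02 and -0.04. The median over the 6 members was 0.08, against -0.01 over all genes tested. A test of whether the sgBcl-2 effect differed between the 2 MEF lines called 0 of 14676 genes. Bbc3 had the lowest unadjusted p of the members there, 0.0340, with an adjusted p of 0.9998, and its effect was -0.15 in line 1 and 0.31 in line 2.

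Of the regulators of these genes, 4 of 7 tested passed in the same comparison. The forkhead factor Foxo3 rose by 0.83 ± 0.14 (SE, adjusted p 0.0111), from a mean of 36.3 to 61.2 CPM. Jun rose by 0.75 ± 0.08 (adjusted p 0.00226) and Atf4, the effector of the integrated stress response, by 0.21 ± 0.05 (adjusted p 0.0476). Ddit3, the stress factor CHOP, fell by 0.51 ± 0.11 (adjusted p 0.0231). Among the pro-survival partners 1 of 4 tested passed, Bcl2 itself, and 0 of 3 effectors, 0 of 4 atypical BH3 proteins and 0 of 10 genes for proteins that modify or tether BH3-only proteins were called by limma.

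**Figure D3:**
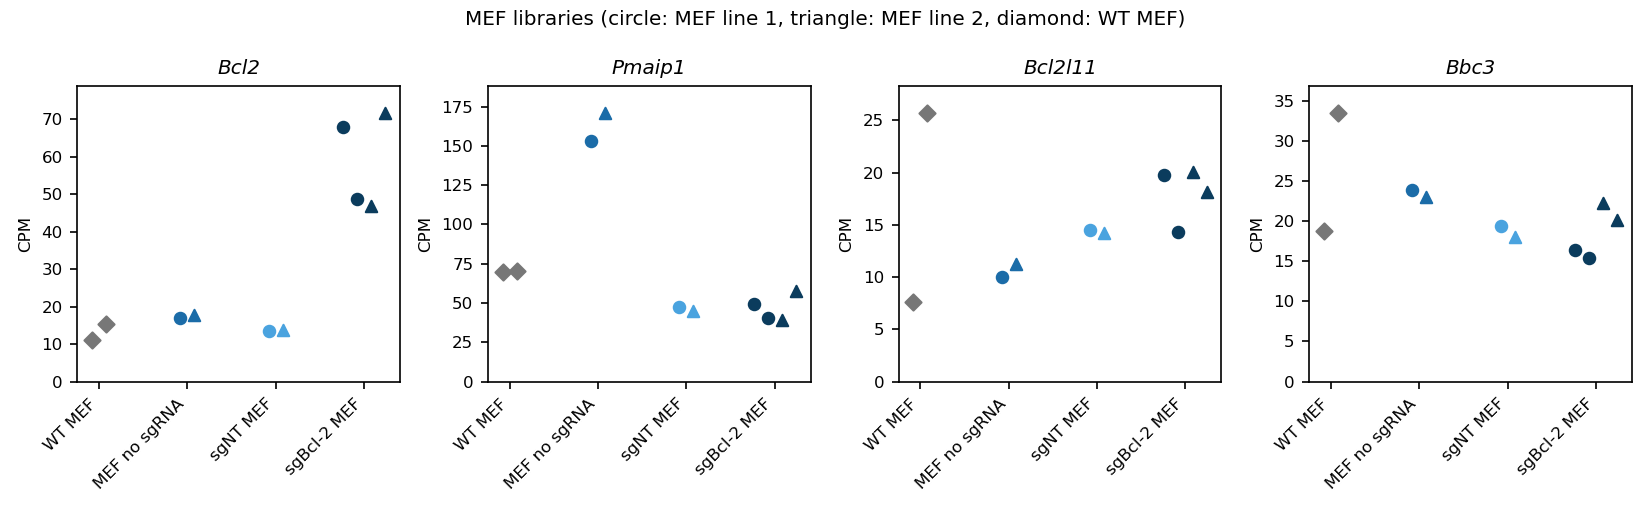
CPM of Bcl2, Pmaip1, Bcl2l11 and Bbc3 in the 10 MEF libraries, 1 point per library, with circles for MEF line 1, triangles for MEF line 2 and diamonds for WT MEFs. Bcl2 is raised in all 4 sgBcl-2 libraries, while Pmaip1 drops from 153 and 171 CPM without sgRNA to 47.3 and 44.9 CPM with sgNT in both lines.

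MEFs with sgNT were then set against MEFs that the labels give the same line numbers but no sgRNA, 2 libraries each. Pmaip1 fell in both lines, with a log2 fold change of -1.82 ± 0.08 (SE), a 3.54-fold drop with an adjusted p of 8.96e-06 by limma. Bcl2l11 rose by 0.42 ± 0.12 (adjusted p 0.0257) and Bid by 0.29 ± 0.08 (adjusted p 0.0272), while Bbc3 fell by 0.34 ± 0.09 (adjusted p 0.0207). Bad, at 0.18 (95% interval -0.05 to 0.41), and Bmf, at -0.28 (-1.002 to 0.44), did not pass. So 4 of the 6 tested members were called, 2 in each direction, where 41.1% of all tested genes were called. Per MEF line, the difference of Pmaip1 was -1.78 in line 1 and -1.95 in line 2. The fibroblast list summed to a like level in both groups, 20940 to 23580 CPM without sgRNA (11 of 12 markers at 1 CPM or more) and 21830 to 23350 CPM with sgNT (12 of 12), but single markers moved with the groups. Postn was 369 to 399 CPM without sgRNA and 1534 to 1735 CPM with sgNT, Thy1 173 to 186 and 709 to 861 CPM, and Dcn 12.7 to 14.8 and 79.7 to 129 CPM. Fn1 and Vim went the other way. Fn1 was 7533 to 8929 CPM without sgRNA and 4451 to 6034 CPM with sgNT, and Vim 3606 to 3680 and 3018 to 3057 CPM. The part of these markers in the result was not tested. Bik, left out by the filter, had 8 and 7 reads without sgRNA and 2 and 0 with sgNT, and without that filter its log2 fold change was -1.61 with an adjusted p of 0.0444.

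Pmaip1 kept its call in 11 of 12 alternatives, between -1.90 and -1.74 on the log2 scale. The exception was the fit over all 20 libraries, where it was -1.87 with an adjusted p of 0.0546. The smaller calls were less firm. Without the filter on low values Bid was not called (adjusted p 0.0606). DESeq2 called Pmaip1 alone, with adjusted p of 0.0825 for Bcl2l11, 0.0815 for Bbc3 and 0.0591 for Bid. Leaving out sgNT MEF replicate 1 or the replicate 1 without sgRNA left Pmaip1 alone. Leaving out sgNT MEF replicate 2 left Pmaip1 and Bid, and leaving out the replicate 2 without sgRNA left Pmaip1 and Bcl2l11.

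Other genes of the pathway moved in the same comparison, where 41.1% of all tested genes were called. Of 3 effectors, Bak1 fell by 0.53 and Bok fell by 1.098 (adjusted p 0.00201 and 0.000858). Among 4 tested pro-survival partners Bcl2 fell by 0.38 and Bcl2l1, encoding BCL-XL, by 0.28, whereas Bcl2l2, encoding BCL-W, rose by 0.46 (adjusted p 0.0230, 0.0187 and 0.00122). Of 7 tested regulators 3 fell and 0 rose. Foxo1 fell by 1.15, Jun by 0.63 and Atf4 by 0.25 (adjusted p 0.000365, 0.000728 and 0.0178). Of the 10 genes for modifying or tethering proteins, 3 rose and 2 fell. Dynll2, the dynein light chain that holds BMF, rose by 0.49, Btrc by 0.35 and the ERK1 gene Mapk3 by 0.29, and Pim1 fell by 0.71 and Ywhaz by 0.38. All adjusted p-values of these 5 were between 0.00166 and 0.0105.

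Both dCas9a-SAM groups without a targeting sgRNA were compared with WT MEFs. Only the group without sgRNA carries the cassette alone, as sgNT MEFs were also infected with an sgRNA. The WT lines come from other embryos, so cassette and line cannot be told apart. No member was called by limma in either comparison, of 6 tested in each. None of the 14560 genes tested for sgNT against WT was called (0%), nor of the 14546 for MEFs without sgRNA against WT (0%), while 589 and 1081 genes had an unadjusted p under 0.05. edgeR and limma-voom called 0 genes in both, and DESeq2 called 83 and 188. The member with the lowest p was Pmaip1 in each. It was lower with sgNT than in WT, at -0.59 ± 0.18 (95% interval -1.09 to -0.10, unadjusted p 0.0284, adjusted p 0.800). Without sgRNA it was higher than in WT at 1.24 ± 0.18, a 2.37-fold difference (95% interval 0.74 to 1.75, unadjusted p 0.00227, adjusted p 0.608). DESeq2 gave an adjusted p of 0.0167 for the latter. The Pmaip1 values of the groups did not overlap in either comparison, and the WT libraries had 75.25 and 65.35 CPM when scaled by TMM.

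These comparisons turned on the WT libraries, which differed from each other far more than other pairs did. Without WT MEF replicate 1, limma called 8424 and 8581 genes and 7 members in each comparison. Without WT MEF replicate 2 it called 1644 and 4712 genes, with 3 and 4 members. In these fits the lone WT library was assumed to vary like the other group. Pmaip1 kept its direction and was called in all 4, at -0.48 and -0.66 for sgNT and 1.37 and 1.16 without sgRNA. Bmf did not keep its direction. It was -2.37 and -2.06 without WT MEF replicate 1, and 1.59 and 1.87 without WT MEF replicate 2, called each time. Bcl2l11 turned in the same way, at -0.71 and 0.84 for sgNT. The WT MEF replicate 2 also carried the myeloid markers given above (7 of 8 at 1 CPM or more), and their part in these values was not tested. Of the lists of partners, effectors, atypical BH3 genes, regulators and modifiers, 0 genes were called by limma in either comparison.

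The lymphoma lines were compared with preB-ALL, another B lineage malignancy that lacks the activated Bcl2. Bcl2 rose in the lines with a log2 fold change of 3.02 ± 0.19 (8.08-fold, adjusted p 9.03e-06), from 20.8 and 22.0 CPM in preB-ALL to 99.4 to 165 CPM, and Myc by 2.76 (6.77-fold). Of the 7 members tested, 2 were called, where 43.4% of all genes were. Bid was higher in the lines by 0.89 ± 0.19 (SE), a 1.85-fold difference with an adjusted p of 0.00687, and all 6 lines exceeded both preB-ALL libraries. Bmf was lower in the lines by -2.22 ± 0.55, a 4.67-fold difference with an adjusted p of 0.0118, and the highest line (30.8 CPM) was below the lower preB-ALL library (57.4 CPM).

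The other 5 did not pass. Bcl2l11 had 0.53 ± 0.22 (95% interval 0.03 to 1.02, adjusted p 0.0798) and Bad -0.71 ± 0.27 (-1.33 to -0.08, adjusted p 0.0657). The intervals were -0.40 to 1.1995 for Bbc3, -2.50 to 0.83 for Pmaip1 and -1.93 to 3.59 for Bik. The median over the 7 members was 0.40, and over all genes it was -0.07. Without preB-ALL replicate 2 neither Bid (0.54, adjusted p 0.0983) nor Bmf (-1.46, adjusted p 0.170) was called, and Bcl2l11 was (0.85, adjusted p 0.0328). That fit assumes that the lone preB-ALL library varies like the lymphoma lines. Bcl2l11 was also called without line 19_216_IgMn (adjusted p 0.0465). Bad was called without line 16_202_IgMp (adjusted p 0.0225), with DESeq2, without scaling and in the fit of all libraries. Without a scaling factor the median of all genes was -0.42 in place of -0.07.

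Sample type and content moved with this comparison too. The fibroblast list summed to 69.6 to 215 CPM in the lines, with Col1a1 at 0.608 to 2.47 CPM, against 3600 to 6699 CPM in preB-ALL with Col1a1 at 456 to 855 CPM. The run, the medium, the RNA kit and the absence of mitochondrial reads also separate preB-ALL from the lines, so they cannot be told apart from the type of malignancy. With mitochondrial genes left out, 2 members were called again. Of 4 tested pro-survival partners, Bcl2l1 fell by 3.70 ± 0.78 (adjusted p 0.00583), from a mean of 130 CPM in preB-ALL to 9.19 CPM in the lines, beside the rise of Bcl2. Of 3 effectors Bok fell by 6.76, and of 7 regulators Jun fell by 4.57, Foxo1 by 1.84 and Ddit3 by 1.77 while E2f1 rose by 1.21. Of the 10 modifiers, Pim1, a kinase that phosphorylates BAD, fell by 3.10 and Mapk3 by 1.12, while Btrc rose by 1.77 and Akt1 by 0.92. Huwe1, which has a BH3 domain and targets MCL-1 for degradation, rose by 0.62 among 4 atypical genes. All these had adjusted p-values of 0.0233 or less by limma, in a comparison that called 43.4% of all genes.

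Lymphoma lines and sgBcl-2 MEFs carry the same cassette and an sgRNA for the same promoter, but differ in cell type, the Myc transgene and culture, which cannot be told apart. Bcl2 was 2.07-fold higher in the lines (log2 1.05 ± 0.18) and Myc 23.0-fold. Of 6 members tested, 4 were called, 2 in each direction, where 81.3% of all genes tested were called. Bcl2l11 rose by 2.00 ± 0.13 (SE, 3.99-fold, adjusted p 1.24e-07) and Bmf by 2.91 ± 0.38 (7.54-fold, adjusted p 3.42e-05), in 6 of 6 lines above all 4 MEF libraries. Bad fell by 1.66 ± 0.16 (3.16-fold, adjusted p 3.49e-06), also without overlap. Pmaip1 fell by 1.57 ± 0.52 (2.98-fold, adjusted p 0.0167), and in unscaled CPM only line 19_216_IgMn, at 41.1 CPM, reached the range of the MEFs, which began at 39.4 CPM. Scaled by TMM, this line had 41.2 CPM and the lowest MEF library 43.3 CPM. Bbc3 had 0.48 (95% interval -0.08 to 1.03) and Bid -0.09 (-0.34 to 0.15). All 17 alternatives called these same 4. Bbc3 was called in addition without line 18_214_IgMn (0.58, adjusted p 0.0496) and without a scaling factor, Bid by DESeq2, and Bik in the fit of all 20 libraries. A share of 4 in 6 is no higher than the share of all genes called.

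The partners of these proteins differed in the same contrast, where 81.3% of all genes tested were called. Bcl2l1 fell by 4.19 and Bcl2l2 fell by 4.92 on the log2 scale. Their means went from 118 and 89.3 CPM in sgBcl-2 MEFs to 9.19 and 8.80 CPM in the lines. Mcl1 had means of 169 and 200 CPM and was not called. The level of Bcl2l2 was uneven among the lines. Its log2 difference was -4.29 in IgM-negative against IgM-positive lines, which limma did not call. Bax fell by 1.25 and Bok fell by 5.84. Of 7 regulators, Trp53 rose by 0.77 and E2f1 by 0.55, and Jun fell by 4.26, Ddit3 by 2.40 and Foxo3 by 1.75. Of 10 modifiers, 4 rose, including Btrc by 1.85 and Casp8, which cleaves BID, by 0.60. The other 3 called modifiers fell, Mapk3 by 2.61 and both dynein light chains, Dynll2 by 2.04 and Dynll1 by 0.43. The highest adjusted p by limma among the genes called and named here was 0.0100.

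Among the lymphoma lines, the 2 labelled IgM-negative were compared with the 4 labelled IgM-positive. No member of 7 tested was called by limma, edgeR or limma-voom, beside 0.597% of all genes called by limma, and 1 had an unadjusted p under 0.05. This was Pmaip1, with 36.8 and 41.1 CPM in IgM-negative and 5.53 to 21.9 CPM in IgM-positive lines. It was 1.78 ± 0.51 (SE, 3.43-fold, 95% interval 0.54 to 3.01) higher in IgM-negative lines, with an unadjusted p of 0.0122 and an adjusted p of 0.293. DESeq2 gave an adjusted p of 0.0455 and the fit of all 20 libraries 0.0179, with log2 fold changes between 1.42 and 2.08 over all alternatives. Bcl2l11 was lower in both IgM-negative lines, at -0.31 (95% interval -0.66 to 0.04, adjusted p 0.497). The intervals were -1.28 to 0.54 for Bbc3, -0.43 to 0.44 for Bid, -0.998 to 0.32 for Bad, -1.72 to 0.72 for Bmf and -5.22 to 0.23 for Bik. The B cell list summed to 1129 and 1271 CPM in the IgM-negative and 1886 to 2093 CPM in the IgM-positive lines, and its part in the Pmaip1 difference was not tested. No gene of the lists of partners, effectors, atypical BH3 proteins, regulators and modifiers was called by limma.

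Primary tumours were compared with the lines 14_179_IgMp and 15_180_IgMp, 2 libraries against 2. Again 0 of 7 tested members were called by limma, edgeR, DESeq2 or limma-voom, and 0 had an unadjusted p under 0.05, while 0.33% of all genes were called by limma. Bmf was 36.8 and 94.2 CPM in the tumours against 20.0 and 30.8 CPM in the lines, a difference of 1.197 ± 0.53. Its 95% interval was -0.22 to 2.61, with an adjusted p of 0.246 by limma. Bid, at 84.8 and 87.2 against 72.8 and 56.5 CPM, had a difference of 0.37 (-0.20 to 0.94). For Bad, at 17.5 and 18.9 against 12.9 and 12.6 CPM, it was 0.46 (-0.21 to 1.13). Bbc3 had -1.50 with an interval of -3.77 to 0.77. Bcl2l11 had -0.04 (-0.75 to 0.68), Pmaip1 0.01 (-1.79 to 1.81) and Bik -0.27 (-3.89 to 3.36). The fit did not pair tumours and lines by mouse, so these intervals also hold differences between mice. They are too wide to say that tumours and lines had like levels. With the mouse of the titles as block limma called 3600 genes, and with that of the descriptions 0. Bcl2 was 235 and 244 CPM in the tumours against 148 and 164 CPM in these lines, and was not called (adjusted p 0.103). T cell markers summed to 161 and 257 CPM in the tumours and at most 22.8 CPM in IgM-positive lines, and myeloid markers to 31.6 and 41.9 CPM against 6.19 to 13.95 CPM in those lines. Only 1 of 8 T cell markers, Cd2, reached 1 CPM in a tumour, with 158 to 255 CPM, and it had 39.5 to 188 CPM in preB-ALL. Of the myeloid markers, 5 of 8 reached 1 CPM in a tumour. The fibroblast list summed to 1341 and 1372 CPM in the tumours, with 4 of 12 markers at 1 CPM or more. Most of that sum was Vim, at 1121 to 1346 CPM, and Col1a1 had 0.526 and 0.698 CPM. The part of these lists in the member values was not tested.

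**Figure D4:**
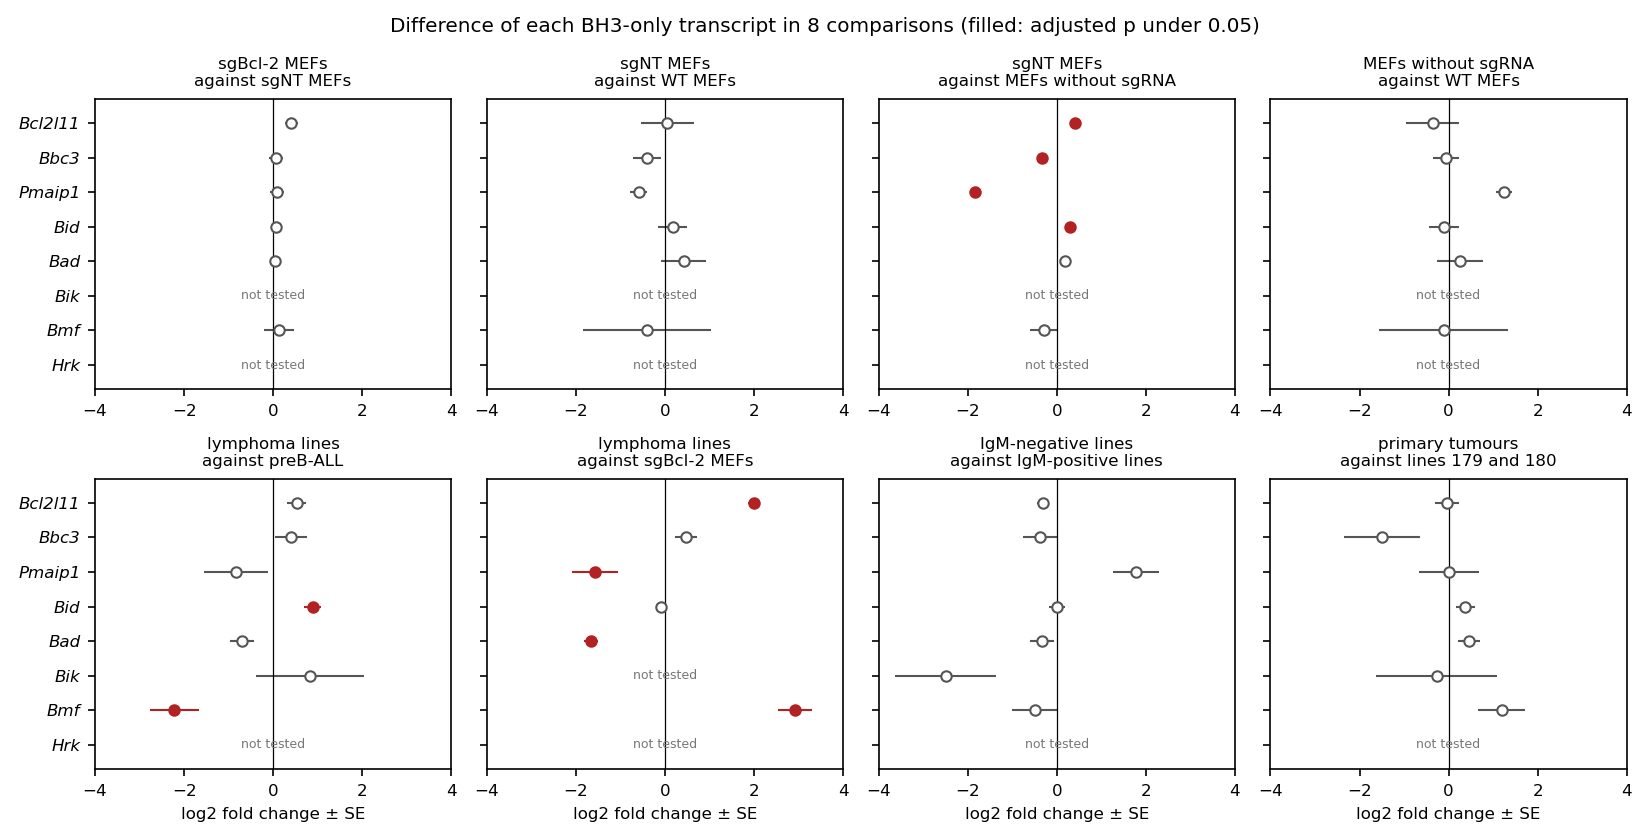
Log2 fold change with its SE for each BH3-only gene in the 8 comparisons, filled where the adjusted p is under 0.05. Filled points are in 3 panels only, 4 each for sgNT MEFs against MEFs without sgRNA and lymphoma lines against sgBcl-2 MEFs, and 2 for lymphoma lines against preB-ALL.

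BIM and BCL-2 were followed together at the protein level in the study, so the level of each member was set against that of Bcl2 over the 6 lymphoma lines, as log2(CPM scaled by TMM + 0.1) with exact two-sided permutation tests. None of the 8 relations passed after Benjamini-Hochberg adjustment over the 8. For Bcl2l11 the exact test gave Pearson's r = 0.65 (p 0.128, adjusted p 0.461) and Spearman's rho = 0.60 (p 0.242, adjusted p 0.483). Without lines 16_202_IgMp and 19_216_IgMn, the farthest from the median of Bcl2, r was 0.77. Pmaip1 gave an exact result of r = -0.59 (p 0.231, adjusted p 0.461) and rho = -0.83 (p 0.0583, adjusted p 0.267), and r was -0.98 without lines 16_202_IgMp and 19_216_IgMn. Both IgM-negative lines lie at the high end of Pmaip1, and within the 4 IgM-positive lines there were too few points to test. Hrk gave r = -0.96 with an exact p of 0.0333 (adjusted p 0.267), but it had 1 read in each of lines 16_202_IgMp and 19_216_IgMn and 0 in the others, so nothing can be read from it. The remaining members had r between -0.32 (Bmf) and 0.55 (Bik), with an exact p of 0.217 or more. Without lines 16_202_IgMp and 19_216_IgMn, Bad turned from -0.198 to 0.647 and Bid from 0.333 to -0.225. Bbc3, Bik and Bmf kept their sign. Values of r without these lines therefore rest on few points and can change sign.

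**Figure D5:**
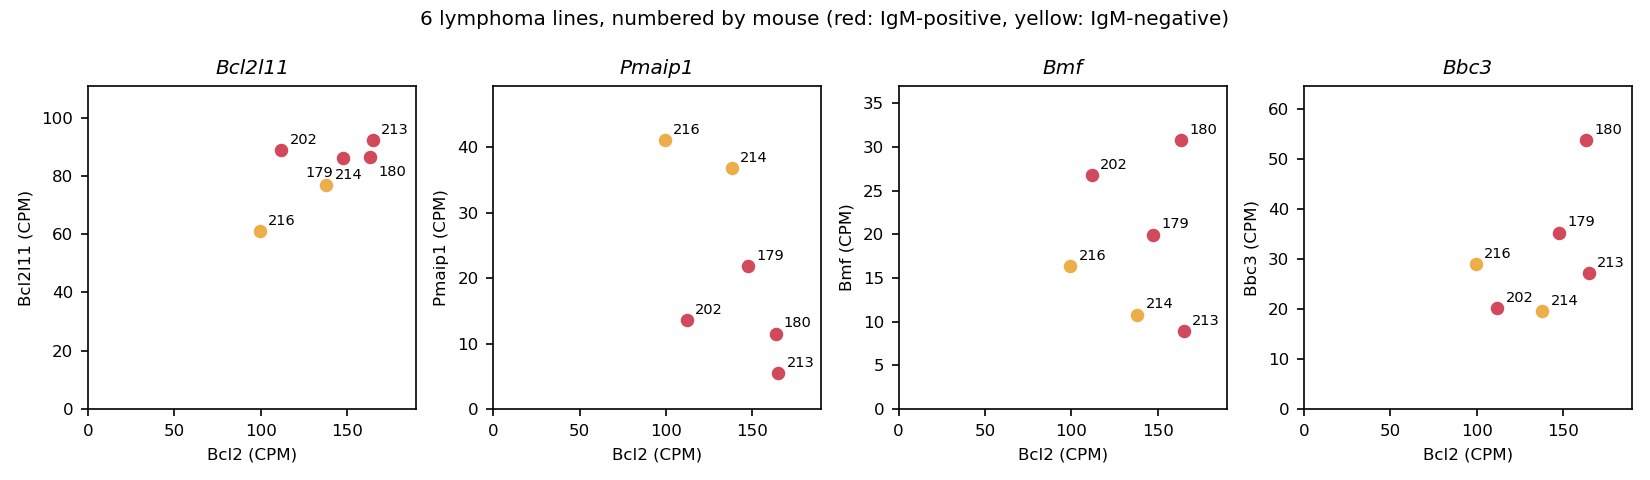
CPM of Bcl2l11, Pmaip1, Bmf and Bbc3 against CPM of Bcl2 in the 6 lymphoma lines, which are numbered by mouse (the middle number of their names), with IgM-positive lines in red and IgM-negative lines in yellow. Bcl2 spans 99.4 to 165 CPM, and the 2 IgM-negative lines are the highest for Pmaip1 and the lowest for Bcl2l11.

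For 6 members, all but Bik and Hrk with their few reads, the genes most like them over all 20 libraries were found by Pearson's r of log2(CPM scaled by TMM + 0.1) among 13780 genes with a mean of at least 1 CPM. The libraries share cell type and run, so these values describe and carry no p. Closest to Bcl2l11 were Map3k1 (r = 0.97), Helb (0.97) and Msh3 (0.96), and closest to Bmf was Tmem87a (0.96), followed by a gene without a symbol and Taf8 (0.96). Bad was nearest to Mtch1 (0.98), Tmem9b (0.97) and Klhl18 (0.97). Pmaip1 had Arl10, Leprotl1 and Igfbp5 at 0.86, 0.86 and 0.85, and Bid had Gm5424, Rida and Keap1 at 0.85, 0.84 and 0.81. Bbc3 had the weakest match, with Pdpk1 (0.72), Sorcs2 (0.69) and Hlx (0.66). Among the members themselves, Bcl2l11 went with Bmf (r = 0.86) and against Bad (-0.85) and Pmaip1 (-0.79), while Bid and Bcl2l11 had r = 0.01 across the same 20 libraries.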

How the data were processed

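RNA was sequenced from 20 libraries with the TruSeq RNA v2 kit, which does not mark strand. The authors aligned reads with Rsubread to GRCm38, counted them per Entrez gene and deposited CPM, with each column scaled to the same total. Whether counting used strand is not given in the sources used here. The submitters' processing notes name edgeR 3.34.1 and limma for the authors' own tests, which were not used. Values stepped in whole reads (100% of values within 0.1 of a whole read), which gave depths of 12474885 to 26678417 reads. Of 25869 identifiers, 25242 matched a RefSeq symbol and 627 did not.

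For each of 8 comparisons only its libraries were fitted with limma 3.58.1 (lmFit, eBayes with trend) in R 4.3.3 on log2(CPM scaled by TMM + 0.1), so fold changes of low genes are understated. Genes passed filterByExpr of edgeR 4.0.16 on the recovered reads, and calls used a Benjamini-Hochberg adjusted p under 0.05 across the tested genes. Correlations used scipy 1.17.1 and figures matplotlib 3.10.9 under Python 3.11.15. All 8 members, Bcl2, Myc, the called genes of 5 pathway lists and the 3 genes most like each member with a mean of at least 1 CPM were named. The members and lists were chosen with earlier results of these data known. Alternatives were edgeR, DESeq2 1.42.0 and limma-voom on the recovered reads, no scaling, a pseudocount of 1, no filter, all 20 libraries in 1 fit, no mitochondrial genes, other sets of lines, replicate blocks, and each library left out in turn. The scripts were tested on simulated data. P-values measure the spread between libraries, and the 4 sgBcl-2 MEF libraries come from 2 MEF lines.

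By their numbers in the labels, MEF libraries were taken to be of the same line. Checked over 16483 genes, the line 1 minus line 2 differences correlated at 0.269 between sgNT and sgBcl-2 MEFs. Between sgNT MEFs and those without sgRNA they correlated at -0.0492. This second value does not bear out the pairing, so results per line for these groups rest on the labels. No libraries of a group were alike within sampling noise. Members with no promoter entry in the sequence table were not analysed for promoters. The values of 1 gene of the pathway lists are not reported here.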

Additional observations from a re-analysis of the deposited data

Results flagged for a closer look

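Over 26 groups of 4 to 6 libraries, 4 groups held a value far from the others, which came to 3 values because Bad in 1 line stood apart in both groups that hold it. Chance gives this in about 1 in 20 groups, and the values of Bik and Hrk stand apart only because a single read was set against 0. Bad in line 16_202_IgMp was 19.8 CPM, far above the other IgM-positive lines and again above the other lymphoma lines, which had 10.8 to 13.3 CPM. Bik in sgBcl-2 MEF replicate 4 was 0.0429 CPM, which is 1 read, where the other 3 libraries had 0 reads. Hrk in line 16_202_IgMp was 0.0379 CPM, also 1 read, where the other IgM-positive lines had 0 reads.

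Between sgNT MEFs and MEFs without sgRNA, the differences of 2 members had opposite signs in the 2 MEF lines, with 1 library per group and line, and neither member was called by limma in this comparison (adjusted p 0.189 for Bad and 0.495 for Bmf). For Bad the log2 difference was 0.298 in MEF line 1 and -0.019 in line 2, the latter close to 0. For Bmf it was 0.272 in line 1 and -0.915 in line 2. The difference between the lines was not tested, and the pairing by line rests on the labels.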

How the results depend on the processing

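Of 693 results of members under the alternatives, 606 kept direction and side of the threshold, 20 lost and 28 gained a call, and 39 changed sign. With sgBcl-2 against sgNT, 1 member was called when libraries were summed per line with the replicate block, 0 with the block alone, and 0 to 1 with a library left out. The count without a library was 0 to 7 for sgNT against WT and for no sgRNA against WT, 1 to 2 for sgNT against no sgRNA and 1 to 3 for lymphoma lines against preB-ALL. For sgNT against no sgRNA, DESeq2 called 1 and the fit of all 20 libraries 0, and the block changed no call. DESeq2 called 1 member for no sgRNA against WT and 1 for IgM, where the fit of all libraries called 1. The cause was not tested. Where leaving out a library left 1 in a group, that library was assumed to vary like the other group.

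Sign changes without scaling were -0.029 for Bbc3, -0.020 for Bid and -0.043 for Bad (sgBcl-2 against sgNT), 0.084 for Bid (lines against sgBcl-2 MEFs), -0.045 for Bid (IgM) and 0.011 for Bcl2l11 (tumours). Bcl2l11 in sgNT against WT was -0.168 with edgeR, -0.167 with DESeq2 and -0.045 with limma-voom. Bbc3 in no sgRNA against WT was 0.005 in the fit of all libraries, Bid for IgM -0.002 with edgeR, Bcl2l11 for tumours 0.006 with DESeq2 and Pmaip1 for tumours -0.009 with limma-voom. With a library left out, sgBcl-2 against sgNT ranged from -0.025 to 0.148 for Bbc3, -0.024 to 0.179 for Pmaip1, -0.019 to 0.163 for Bid, -0.079 to 0.178 for Bad and -0.112 to 0.385 for Bmf. Against WT, sgNT ranged from -0.706 to 0.844 for Bcl2l11, -0.217 to 0.610 for Bid, -0.258 to 1.139 for Bad and -2.365 to 1.587 for Bmf. MEFs without sgRNA against WT ranged from -1.096 to 0.425 for Bcl2l11, -0.340 to 0.259 for Bbc3, -0.508 to 0.349 for Bid, -0.440 to 0.987 for Bad and -2.055 to 1.866 for Bmf. Bmf ranged from -0.628 to 0.068 for sgNT against no sgRNA, Bid from -0.062 to 0.115 for IgM, and for the tumours Bcl2l11 from -0.369 to 0.333, Pmaip1 from -0.776 to 0.835 and Bik from -1.671 to 1.127.

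Counts of all genes called moved as well. For sgBcl-2 against sgNT (1592, of which 970 higher) the fit of all libraries gave 42, summing with the block 2654, no scaling 1847 (710 higher and 1137 lower), and a library left out 156 to 1638. Against WT the fit of all libraries called 51 genes for sgNT and 512 for no sgRNA. For sgNT against no sgRNA (6029) the fit of all libraries gave 411. For lines against preB-ALL (2914 higher, 3145 lower) no scaling gave 1691 and 4400, and leaving out preB-ALL replicate 2 gave 3177 calls. For IgM (74, with 6 higher) edgeR called 24, limma-voom 1, DESeq2 749 (172 higher), a pseudocount of 1 CPM 47, the fit of all libraries 958, and a library left out 35 to 117. For tumours (42, with 34 higher) edgeR, limma-voom and no filter called 0, no scaling 79, DESeq2 2100 (1039 higher), the fit of all libraries 2497, all IgM-positive lines 1418, the mice of the titles as block 3600 those of the descriptions 0, and any library left out 0.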

Other observations

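Bnip3 and Bnip3l encode mitophagy receptors with an atypical BH3 domain. Bnip3, induced by low oxygen, had a mean of 158 CPM in MEFs without sgRNA, 336.5 CPM with sgNT and 406 CPM with sgBcl-2, and 45.2 CPM in the lymphoma lines. It rose by 1.07 ± 0.09 (SE, adjusted p 0.000147 by limma) with sgNT against no sgRNA, and fell by 3.51 ± 0.42 (adjusted p 1.70e-05) in the lines against sgBcl-2 MEFs. Its relative Bnip3l rose by 0.53 ± 0.08 (adjusted p 0.00162) and fell by 1.35 ± 0.24 (adjusted p 0.000398) in the same comparisons. Becn1, the autophagy gene, rose by 0.22 ± 0.07 (adjusted p 0.0146) in the lines against sgBcl-2 MEFs. Huwe1 rose there by 0.67 ± 0.08 (adjusted p 2.49e-05), from a mean of 379 to 683 CPM.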
